A study of Mus musculus with 2 samples.

Results

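The genes of sterol sensing and lipoprotein receptor control are described here in regenerating mouse liver. They were chosen by symbol as Srebf1, Srebf2, Scap, Insig1, Insig2, Mylip, Stard4 and Npc1, and all 8 were found among the 33224 gene symbols with a usable value. RNA-sequencing was done on liver RNA from 48 hr after partial hepatectomy (PH), the surgical removal of most of the liver. It compared wild type (WT) mouse liver with PPARβ-null (KO) liver, which lacks the nuclear receptor PPARβ. Both groups were male C57BL/6 mice that underwent PH, with an age of 4 months in the sample characteristics (the protocols give a range around it) and food and water freely given. Each genotype is 1 library, and the number of livers behind each library is not given in the sources used here. No value therefore carries an error between mice, no test across samples was possible, and the sequencing lane (lane 2 for WT, lane 3 for KO) and the genotype cannot be told apart. The paper reports that liver regeneration was delayed in KO mice. At the single time of 48 hr, the stage of regeneration and the genotype therefore cannot be told apart either. Levels are FPKM, read fragments scaled to exon length and library size, as estimated by the authors for each locus.

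Cells sense cholesterol in the membrane of the endoplasmic reticulum (ER). The precursors of the transcription factors SREBP1 and SREBP2, encoded by Srebf1 and Srebf2, sit there bound to the escort protein Scap, and when sterols are plentiful Insig1 or Insig2 holds Scap back. When sterols run low, Scap carries the precursors to the Golgi, where proteases release the active factors, and these switch on genes of sterol and fatty acid synthesis, Insig1 included. Mylip is a ubiquitin ligase, induced by the oxysterol receptors LXR, that marks lipoprotein receptors for breakdown. Stard4 carries sterol through the cytosol, and Npc1 exports cholesterol from lysosomes. In the liver SREBP1c, a product of Srebf1, drives fatty acid synthesis after feeding, and a liver transcript of Insig2 is known to be repressed by insulin.

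The 2 Insig genes moved in opposite directions between the libraries. Insig1 was 6.53-fold lower in KO than in WT liver, whereas Insig2 was 3.17-fold higher. Srebf1 was 5.06-fold lower and Stard4 2.22-fold lower. Srebf2 and Scap were lower by less than 1.5-fold, and Npc1 and Mylip differed by 1.13-fold, with a direction that depended on the scaling. So 3 of the 8 genes were lower in KO by more than 1.5-fold and 1 was higher. The same genes passed 2-fold in the values as deposited. A gene is called expressed here when the mean of its 2 values is 1 FPKM or more. Of the 11723 expressed genes, 19.9% were lower in KO by more than 1.5-fold and 4.2% were higher. At 2-fold these shares were 8.69% and 1.77%. The KO values of most genes were slightly lower, with 75.6% of expressed genes below their WT value and a median log2 KO/WT of -0.24. After the KO values were multiplied by 1.18 to centre that median, 12% of expressed genes were lower by more than 1.5-fold and 7.39% higher. By that fold 3 of the 8 genes were still lower and 1 higher. Stard4 then lay within 2-fold, with a WT/KO ratio of 1.88. Over the 8 genes, log2 KO/WT had a median of -0.50, which centring brought to -0.26.

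**Figure D1:**
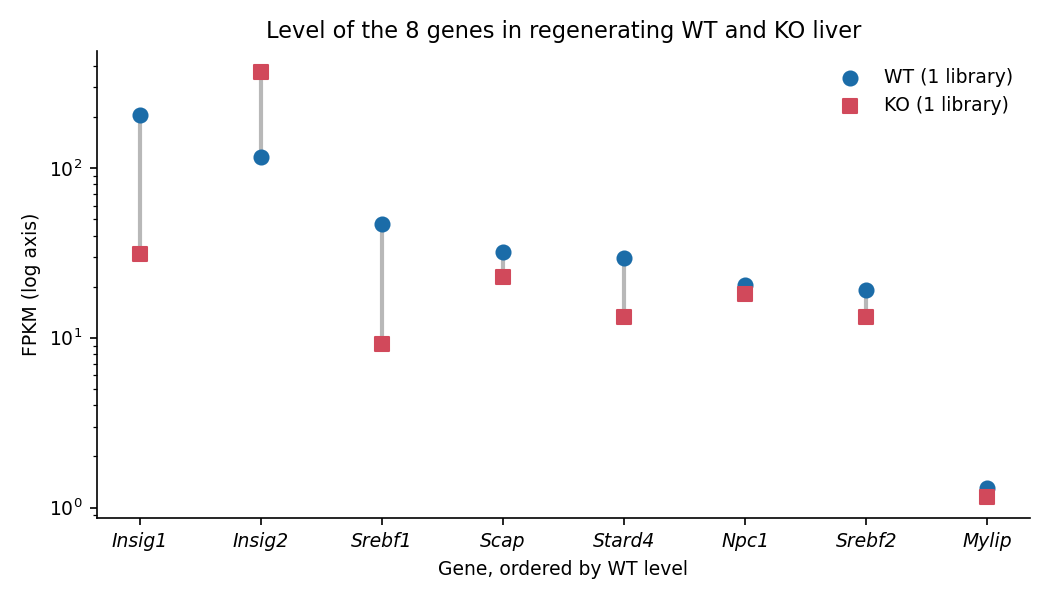
Each gene's FPKM in the WT library (circle) and the KO library (square) is drawn on a log axis, with the genes ordered by WT level and 1 library per genotype. In these values as deposited Insig2 is the gene whose square lies above its circle (those of Npc1 and Mylip would also lie slightly above after centring), while the squares of Insig1, Srebf1 and Stard4 lie furthest below their circles.

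The stretches upstream of the annotated starts of the Insig and Srebf genes are shown because these pairs differ most in how they moved. The sequences are the 250 bases before a start, 5′ to 3′ on the gene's strand, from RefSeq on GRCm38.p6. Capitals mark any match on either strand to the sterol element TCACNCCAC, its shortened form TCACNCCA which lies within it, the NF-Y box CCAAT, the E-box CACGTG and the Sp1 box GGGCGG. The shortened form was added after the sequences were seen. Insig1 has 1 start, preceded by chr5:28071162-28071411 (plus strand). Insig2 has 3 starts on the minus strand, and the stretches before the outermost, chr1:121332590-121332839, and the middle one, chr1:121328025-121328274, are shown. Srebf1 has 3 starts on the minus strand, and the stretches before the outermost, chr11:60222582-60222831, and the innermost, chr11:60210472-60210721, are shown. Srebf2 has 1 start, preceded by chr15:82147019-82147268 (plus strand).
Insig1: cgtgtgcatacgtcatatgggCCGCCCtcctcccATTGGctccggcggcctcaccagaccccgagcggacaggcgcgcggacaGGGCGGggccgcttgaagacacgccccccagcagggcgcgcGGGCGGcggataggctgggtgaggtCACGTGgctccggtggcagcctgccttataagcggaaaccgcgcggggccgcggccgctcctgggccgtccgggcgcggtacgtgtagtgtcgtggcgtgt
Insig2, outermost start: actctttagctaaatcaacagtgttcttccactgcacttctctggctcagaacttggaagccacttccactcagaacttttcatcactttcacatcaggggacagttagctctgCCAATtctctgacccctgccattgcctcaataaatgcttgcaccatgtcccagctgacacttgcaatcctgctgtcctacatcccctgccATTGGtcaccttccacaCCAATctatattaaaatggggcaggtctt
Insig2, middle start: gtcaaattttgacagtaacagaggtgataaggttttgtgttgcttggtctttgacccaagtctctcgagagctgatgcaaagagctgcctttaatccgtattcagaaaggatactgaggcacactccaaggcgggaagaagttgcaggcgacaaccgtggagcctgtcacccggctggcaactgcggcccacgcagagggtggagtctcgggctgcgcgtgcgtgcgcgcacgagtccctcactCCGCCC
Srebf1, outermost start: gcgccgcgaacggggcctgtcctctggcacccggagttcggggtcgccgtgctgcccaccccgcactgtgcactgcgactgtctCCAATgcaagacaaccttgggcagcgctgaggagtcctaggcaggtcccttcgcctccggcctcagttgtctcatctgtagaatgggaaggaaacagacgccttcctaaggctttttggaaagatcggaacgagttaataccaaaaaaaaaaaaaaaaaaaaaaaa
Srebf1, innermost start: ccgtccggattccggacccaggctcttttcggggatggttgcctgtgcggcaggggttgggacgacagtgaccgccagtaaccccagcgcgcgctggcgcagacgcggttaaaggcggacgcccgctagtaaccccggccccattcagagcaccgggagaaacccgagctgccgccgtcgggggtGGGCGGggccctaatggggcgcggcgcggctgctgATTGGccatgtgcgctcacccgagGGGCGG
Srebf2: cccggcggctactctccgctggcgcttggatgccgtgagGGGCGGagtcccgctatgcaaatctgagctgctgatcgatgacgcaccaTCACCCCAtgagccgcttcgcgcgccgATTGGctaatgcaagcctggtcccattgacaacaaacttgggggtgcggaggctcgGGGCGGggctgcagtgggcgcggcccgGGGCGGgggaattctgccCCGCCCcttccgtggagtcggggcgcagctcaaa

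In windows from 250 bases before to 50 bases after a start, the promoter table held 11 windows for 6 of the 8 genes, and Stard4 and Npc1 were not analysed here. The full sterol element was found in 0 of these 11 windows and in 1.24% of all 32851 promoter windows of the table. At so low a share, 0 of 11 windows does not show a lack of the element. Variants other than the shortened form were not searched. The shortened form occurred once, in Srebf2 at position -162 counted from the start, and in 4.36% of all windows. An E-box, found in 7.15% of all windows, lay at -101 in Insig1 and in both windows of Scap, which overlap. The NF-Y box is common, with 37.4% of all windows, and occurred 3 times each in the outermost Insig2 window and in Mylip, and once each in Insig1, Srebf2 and both Srebf1 windows shown. The Sp1 box, in 35.7% of all windows, occurred 3 times in Insig1 and 5 times in Srebf2. It occurred 0 times in the outermost windows of Insig2 and of Srebf1, and 1 time in each other Insig2 window. In Srebf1 it occurred 2 times in the innermost window and 3 times in the middle one, which is not shown. The overlapping Scap windows held 1 and 3 Sp1 boxes, and the Mylip window held 1. These matches describe letters in a short window and not binding, and the deposited values do not separate transcripts by start.

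Insig1 (chr5:28397952-28405201, plus strand, on NCBIM37 with GENCODE vM1) encodes the Insig protein that is itself a product of SREBP activity. Its level was 205 FPKM in WT and 31.3 FPKM in KO, which gave a WT/KO ratio of 6.53 with a counting interval of 6.33 to 6.74. The interval is a 95% exact binomial interval from estimated fragments, and like the others below it covers counting error only and leaves out any difference between mice. Insig1 ranked 366 among the 11723 expressed genes in WT and 2083 in KO. Of those genes 1.91% had a lower KO/WT ratio.

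Insig2 (chr1:123200930-123229166, minus strand) encodes the second Scap-retaining protein and was the single gene of the 8 that was higher in KO in the values as deposited, while Npc1 and Mylip were also slightly higher after centring or with equal upper quartiles. Its level was 116 FPKM in WT and 368 FPKM in KO, a KO/WT ratio of 3.17 with a counting interval of 3.12 to 3.23. Its rank among expressed genes went from 702 in WT to 180 in KO, and 0.495% of expressed genes had a higher KO/WT ratio. Insig2 has 13 annotated transcripts, and the value of the locus does not separate the liver transcript from the others. No stretch of 100 bases in the coding transcripts of Insig1 or Insig2 was shared with another gene, so reads of 100 bases could be told apart between them.

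The make-up of the Insig RNA differed between the 2 libraries. Summed, Insig1 and Insig2 came to 320.6 FPKM in WT and 398.9 FPKM in KO. Insig1 made up 63.9% of that sum in WT and 7.86% in KO. Within a library, where the scaling cancels, the ratio of Insig1 to Insig2 was 1.77 in WT and 0.0853 in KO, a 20.7-fold difference.

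Srebf1 (chr11:60012591-60036083, minus strand) gives rise to SREBP1a and SREBP1c, which the locus value does not separate. Its level was 46.6 FPKM in WT and 9.21 FPKM in KO, which gave a WT/KO ratio of 5.06 with a counting interval of 4.83 to 5.30. Its rank went from 1673 to 5011, and 2.29% of expressed genes had a lower KO/WT ratio. Srebf1 shares 109 of its 5634 exon bases with Rai1 on the opposite strand, and whether strand was used in counting is not given in the sources used here. Rai1 was at 3.51 FPKM in WT and 4.03 FPKM in KO, below Srebf1 in both libraries.

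Srebf2 (chr15:81977696-82035806, plus strand), whose product is the main activator of cholesterol synthesis genes, differed far less. Its level was 19.1 FPKM in WT and 13.3 FPKM in KO, which gave a WT/KO ratio of 1.43 with a counting interval of 1.37 to 1.497. The centred ratio was 1.21. The ratio of Srebf1 to Srebf2 within a library was 2.44 in WT and 0.692 in KO, so the order of the 2 genes was turned around. Srebf1 made up 70.9% of their summed 65.6 FPKM in WT and 40.9% of 22.5 FPKM in KO. The host gene Srebf2 also holds the microRNA gene Mir33 in an intron, and the Mir33 row was listed at 0 in both libraries. Whether these libraries could hold so short an RNA was not tested, so the 0 does not show that it was absent.

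**Figure D2:**
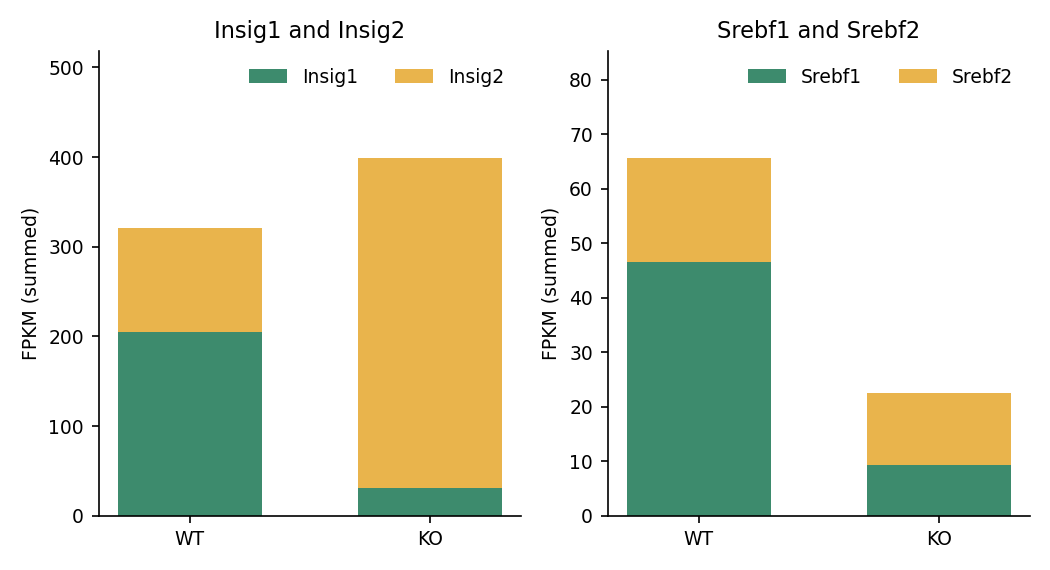
Stacked bars give the FPKM of Insig1 and Insig2 (left) and of Srebf1 and Srebf2 (right) in the WT and KO libraries, 1 library each, on axes that start at 0. Insig1 takes 63.9% of the WT bar and 7.86% of the KO bar, and the Srebf bar is 65.6 FPKM tall in WT and 22.5 FPKM in KO.

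Scap (chr9:110235792-110287450, plus strand), the escort protein that binds sterol, was at 31.9 FPKM in WT and 22.8 FPKM in KO. The WT/KO ratio was 1.40 with a counting interval of 1.35 to 1.45, and 1.18 after centring. Scap and Srebf2, whose products form a complex, kept nearly the same ratio of Srebf2 to Scap, 0.598 in WT and 0.584 in KO. Such ratios are of RNA and do not give amounts of protein. The ratio of Insig1 to Scap was 6.42 in WT and 1.37 in KO, while that of Insig2 to Scap was 3.63 in WT and 16.1 in KO. Scap shares 985 of its 5205 exon bases with 5830462I19Rik on the opposite strand, which was at 0.355 FPKM in WT and 0.364 FPKM in KO.

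Stard4 (chr18:33359009-33373516, minus strand), a sterol carrier whose gene responds to SREBP2, was at 29.5 FPKM in WT and 13.3 FPKM in KO. The WT/KO ratio was 2.22 with a counting interval of 2.14 to 2.31, and 1.88 after centring. Of expressed genes, 6.94% had a lower KO/WT ratio. Stard4 thus stood between Insig1 and Srebf1 on one side and Srebf2 and Scap on the other.

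Npc1 (chr18:12348202-12394909, minus strand), a lysosomal protein with a sterol-sensing domain, was at 20.5 FPKM in WT and 18.1 FPKM in KO. The WT/KO ratio was 1.13 with a counting interval of 1.09 to 1.18, and it turned to 0.959 after centring, so its direction depends on the scaling. Npc1 shares 192 of its 10725 exon bases with 3110002H16Rik on the opposite strand, which was at 6.35 FPKM in WT and 7.69 FPKM in KO. It shares 90 exon bases with Gm15956.

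Mylip (chr13:45485111-45507388, plus strand), the ligase that removes lipoprotein receptors, was the lowest of the 8 genes in both libraries. Its level was 1.31 FPKM in WT and 1.16 FPKM in KO, which gave a WT/KO ratio of 1.13 with a counting interval of 0.923 to 1.37. The interval includes 1, so a difference was not detectable at this depth, and the ratio turned to 0.954 after centring. Mylip ranked 11364 in WT and 10853 in KO among the 11723 expressed genes.

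**Figure D3:**
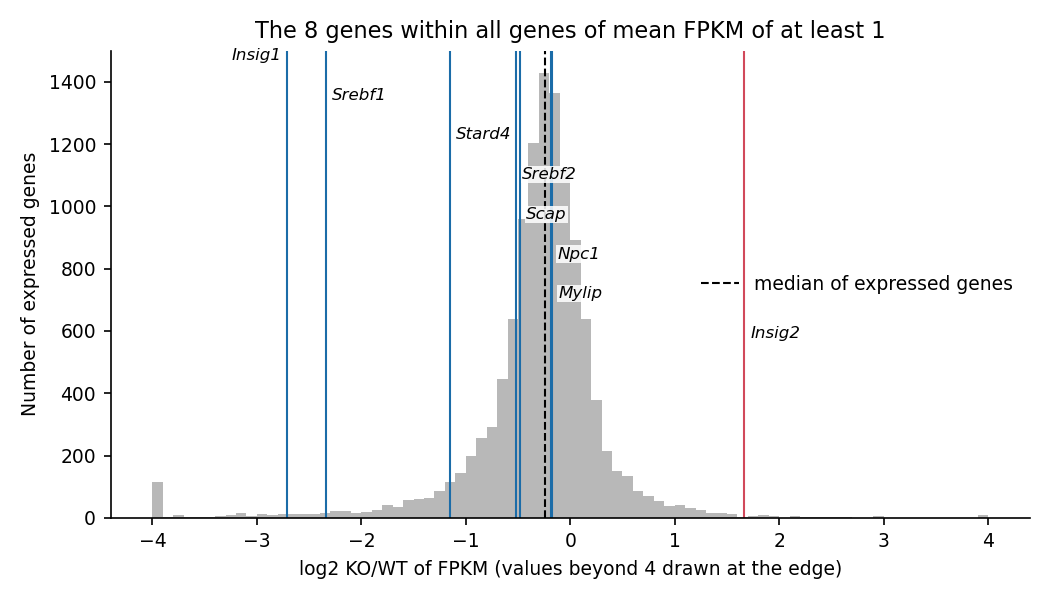
The histogram counts the 11723 expressed genes by their log2 KO/WT, with values beyond 4 in either direction drawn at the edge, and vertical lines mark the 8 genes. Insig1, Srebf1 and Stard4 lie to the left of the bulk and Insig2 to its right, while Npc1 and Mylip lie beside the median of -0.24 (dashed), on its right, and are slightly higher in KO after centring.

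The genes around these 8 in the pathway were compared by lists. The counts below are of expressed genes that differed by more than 1.5-fold, and they are to be read beside the background shares given above. The genes of the machinery that moves and cuts SREBP hardly differed. Of 13 genes of SREBP cleavage and transport in COPII vesicles, 0 were lower and 1 was higher, and the median log2 KO/WT of -0.12 became 0.12 after centring. Sar1b, the most abundant and a GTPase that starts COPII coat assembly, was at 114.4 FPKM in WT and 114.5 FPKM in KO. Sec13 was at 42.2 and 34.9 FPKM and Sar1a at 39.7 and 32.0 FPKM in WT and KO. The gene past 1.5-fold, named after its values were seen, was Paqr3, a Golgi protein known to tether Scap and SREBP, with 3.95 FPKM in WT and 6.16 FPKM in KO.

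Sterol-regulated degradation in the ER was as even. Of 13 genes, 1 was lower and 0 were higher, and after centring 0 passed in either direction. Vcp, the ATPase that extracts proteins from the ER membrane, was at 94.4 FPKM in WT and 96.6 FPKM in KO. Aup1, whose value is that of a joint locus with Dqx1, was at 75.4 and 77.1 FPKM.

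Of 7 genes for proteins with a sterol-sensing domain outside Scap and Npc1, 3 were expressed and 2 of these were lower in KO. Dhcr7, the enzyme of the last step of cholesterol synthesis by one route, was 4.68-fold lower, from 109.5 FPKM in WT to 23.4 FPKM in KO. Ptch1, the Hedgehog receptor, was at 5.62 FPKM in WT and 4.53 FPKM in KO.

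Among 14 expressed genes of lysosomal and intracellular sterol transport, 2 were lower in KO and 1 was higher, and their median log2 KO/WT of -0.11 became 0.13 once centred. Tmem97, an ER and lysosomal protein that binds Npc1, was 2.33-fold lower, from 87.8 FPKM in WT to 37.7 FPKM in KO. Npc2, the soluble partner of Npc1 in the lysosome and named after its values were seen, was 1.52-fold lower, from 14.3 to 9.44 FPKM, and lay within 1.5-fold after centring. The higher gene, also named after its values were seen, was Nceh1, a cholesterol ester hydrolase, with 6.55 FPKM in WT and 12.6 FPKM in KO. The most abundant genes were within 1.5-fold. Scp2, a peroxisomal sterol carrier, was at 999.8 FPKM in WT and 1375 FPKM in KO and was the second gene counted as higher once centred. The lysosomal membrane proteins Lamp2 and Lamp1 were near equal, with Lamp2 at 254.2 and 275.2 FPKM and Lamp1 at 226.6 and 190.7 FPKM. Of 6 expressed oxysterol-binding proteins, 0 passed 1.5-fold in either direction, and their WT/KO ratios ran from 0.960 to 1.31. Osbpl9 was at 49.5 FPKM in WT and 50.4 FPKM in KO, Osbpl1a at 35.8 and 37.3 FPKM, and Osbp, which exchanges sterol at the Golgi, at 25 and 19.1 FPKM.

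Of 15 expressed genes for lipoprotein receptors, their adaptors and their trafficking, 0 were lower and 3 were higher in KO, and 4 were higher after centring but 2 with equal sums of FPKM, where Lrp1 lay within 1.5-fold. The most abundant was Lrp1, a receptor for chylomicron remnants, with 125.7 FPKM in WT and 189.9 FPKM in KO, a KO/WT ratio of 1.51. Scarb1, the receptor for HDL, was at 51.0 FPKM in WT and 80.5 FPKM in KO, a ratio of 1.58. The other higher gene, named after its values were seen, was Lrp5, a Wnt coreceptor of the same family, with 16.7 FPKM in WT and 28.1 FPKM in KO. Commd1, which takes part in receptor recycling and whose value is that of a joint locus with B3gnt2, was at 46.3 FPKM in WT and 35.6 FPKM in KO.

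All 4 genes for ubiquitin partners of Mylip were expressed, and 2 of them were lower in KO, of which 1 remained past 1.5-fold after centring. Usp2, a deubiquitinase known to act on Mylip and also an output gene of the circadian clock, was 5.14-fold lower, from 9.81 FPKM in WT to 1.91 FPKM in KO. Its counting interval was 4.62 to 5.74. The conjugating enzymes Ube2d3 and Ube2d2 were within 1.10-fold, at 121.6 and 111.0 FPKM and at 25.9 and 23.5 FPKM in WT and KO. Ube2d1, named after its values were seen, was 1.53-fold lower, from 6.19 to 4.05 FPKM.

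LXR induces Mylip and Srebf1, and of 9 genes for LXR, its partner and its other targets, 3 were lower and 0 were higher in KO, with 1 lower after centring. Rxra, the common partner receptor, was at 91.2 FPKM in WT and 114.0 FPKM in KO. Nr1h3, which encodes LXRα and whose value is that of a joint locus with Gm13783 and Madd, was at 47.7 and 54.6 FPKM. Lpcat3, a phospholipid acyltransferase, was 1.76-fold lower, from 41.0 to 23.3 FPKM. Abcg1, a sterol exporter, was 2.07-fold lower but low in both libraries, at 1.36 FPKM in WT and 0.657 FPKM in KO. The third, named after its values were seen, was Pltp, the phospholipid transfer protein, with 6.48 FPKM in WT and 4.00 FPKM in KO.

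Of 8 genes known to modify SREBP activity, 1 was lower and 1 was higher. Sik1, a kinase that restrains SREBP1c, was 2.06-fold higher in KO, from 7.48 FPKM in WT to 15.4 FPKM in KO. Mlxipl, which encodes the glucose-responsive factor ChREBP, was 1.58-fold lower, from 58.0 to 36.7 FPKM, and within 1.5-fold after centring. Lpin1 was at 31.6 FPKM in WT and 27.9 FPKM in KO, and Crtc2 at 13.0 and 12.7 FPKM.

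The enzymes that SREBP switches on were lower in KO almost throughout. Of 18 expressed SREBP2 target enzymes of cholesterol synthesis, 16 were lower by more than 1.5-fold, with a median log2 KO/WT of -1.82. Of 12 expressed SREBP1c target enzymes of fatty acid synthesis, 12 were lower, with a median of -1.55. These medians were -1.58 and -1.30 after centring, and the counts stayed at 16 and 12. In the same libraries and before centring, log2 KO/WT was -2.34 for Srebf1, -0.52 for Srebf2 and -0.48 for Scap. How these values relate to those of the target enzymes was not tested.

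**Figure D4:**
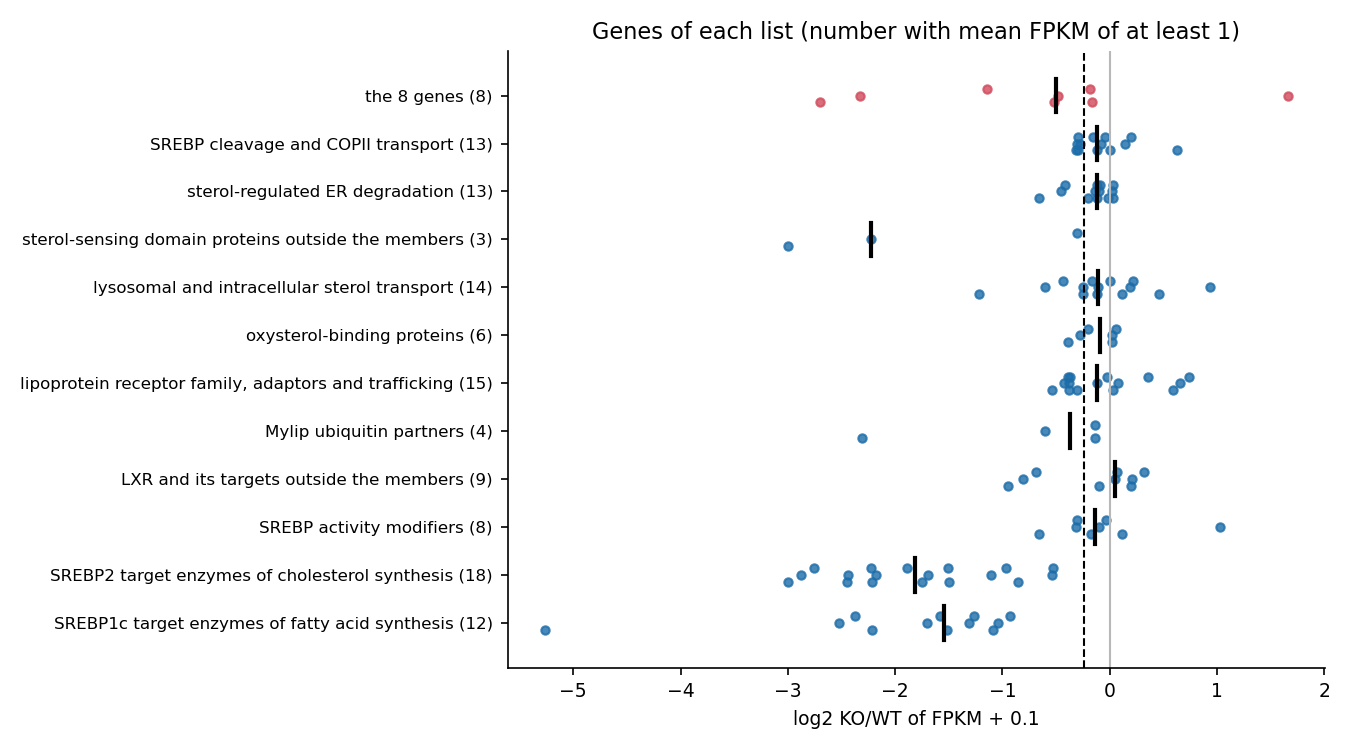
Each point is an expressed gene, placed by log2 KO/WT of FPKM + 0.1 in the row of its list, with black bars for list medians and a dashed line at the median of all expressed genes, -0.24. The target enzymes of SREBP lie far to the left with medians of -1.82 and -1.55, while the cleavage, ER degradation and oxysterol-binding lists lie near 0, lower in KO as deposited and higher after centring by their medians.

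Beyond the annotated 3′ end of Insig2 the assembly held loci without a gene name, which were chosen for description after their values were seen. There were 9 of them, on NCBIM37 between positions 123186584 and 123198367 of chromosome 1, at distances from 2.56 to 14.3 kb, in a window of 20 kb. They were at 0 to 0.0742 FPKM in WT and at 0.318 to 0.623 FPKM in KO. All 9 were higher in KO, and 2 were listed at 0 in WT. The loci follow one another closely, for example with 1 ending at position 123193353 and the next starting at 123193408. Whether they are pieces of 1 longer stretch was not tested, so they do not count as 9 separate observations. Together they held an estimated 20.4 fragments in WT and 227 fragments in KO over 10.5 kb, which is 0.0361 and 0.395 FPKM. The KO/WT ratio of the sum was 10.9, which is a description with no test. These loci were picked for their values, and nearly all of their reads are from KO, so that loci of this kind are listed largely through the KO library and a ratio well above 1 follows from the choice. The same window beyond each of the other 7 genes held 0 such loci. Of all 2302 unnamed loci, 51.6% were higher in KO. These loci carry no strand in the deposited table, and whether their reads come from transcripts of Insig2 was not tested.

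**Figure D5:**
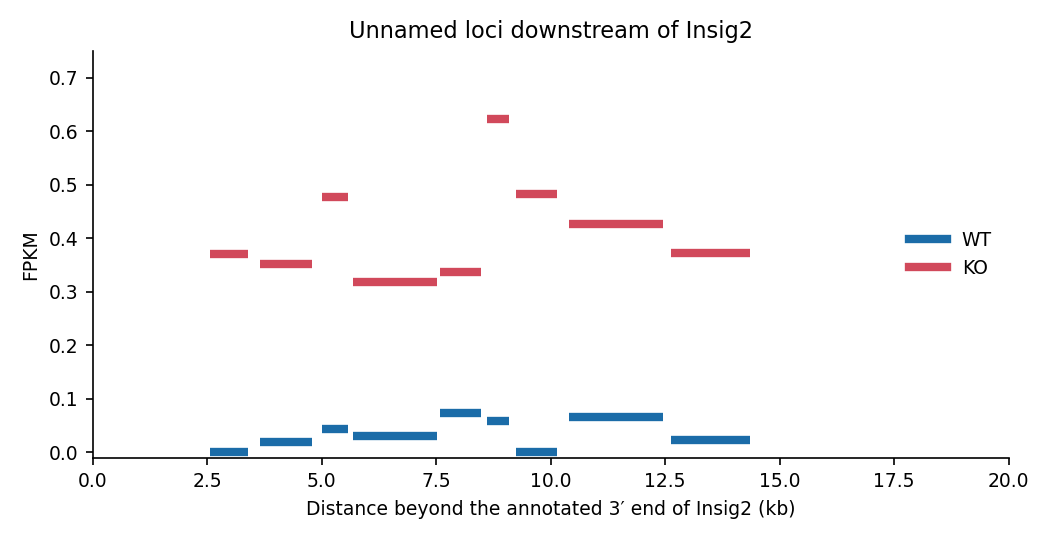
Horizontal bars give the FPKM of the 9 unnamed loci in the WT and KO libraries against their distance beyond the annotated 3′ end of Insig2. The KO bars lie between 0.318 and 0.623 FPKM and the WT bars between 0 and 0.0742 FPKM.

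The targeted gene and cell type markers were read from the same libraries. Ppard, the gene of PPARβ, was at 2.67 FPKM in WT and 2.42 FPKM in KO, and since a value for the whole locus does not show whether a part of the gene is deleted, it does not check the genotype. Hepatocyte markers were abundant in both libraries, with Apoa1 at 3061 FPKM in WT and 3503 FPKM in KO, and of 8 such markers 2 were lower and 2 higher by more than 1.5-fold, also after centring. Of 8 macrophage and Kupffer cell markers 6 were lower in KO, or 4 after centring, and their sum was 60.8 FPKM in WT and 38.5 FPKM in KO. Of 8 endothelial markers 5 were lower, or 3 after centring (sums of 62.5 and 44.9 FPKM), and of 8 stellate cell markers 3 were lower, or 2 after centring (sums of 104.1 and 67.2 FPKM). Of 3 expressed cholangiocyte markers 1 was lower, also after centring (sums of 29.8 and 25.7 FPKM), and the 2 expressed markers of lymphocytes and neutrophils were both lower, or 1 of them after centring (sums of 13.4 and 7.13 FPKM), with Ly6g and Mpo listed at 0. The part of cell composition in the values above was not tested, and in bulk liver fewer cells of a type and less RNA per cell cannot be told apart.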

How the data were processed

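Hepatic RNA was prepared as TruSeq libraries and sequenced on an Illumina HiSeq instrument with 100 bp reads, given as paired end in the labels and as single end in the methods. Per the submitters' processing notes, the authors used TopHat2 2.0.0, Cufflinks 1.3.0 and Cuffdiff with build mm9. The FPKM values deposited by the authors are 1 per locus and library, and it is not given in the sources used here whether quartile scaling was applied. The authors' columns of fold change, test statistic, p-value, q-value and significance were not used. Of 38016 rows, 21 marked HIDATA were left out, rows of a symbol were summed, and a joint row gave its value to each symbol. Depth was estimated from the steps between low values of single-exon genes: 1 fragment on 1 kb was worth 0.0185 FPKM in WT (502 genes) and 0.0182 in KO (488 genes). Counting intervals (95%) used these depths and the longest annotated transcript. List medians are of log2 ratios of FPKM + 0.1. The steps were tested on simulated data. The simulated counts had known lengths and no difference between mice, so that test does not cover errors from either. Named genes were the 8 genes, the 3 most abundant of each list, those past 2-fold, Ppard and overlapping loci, except that the target enzymes of SREBP are given as counts, and results of a few genes that the rule covers are left out. The genes and lists were chosen with earlier results of these data known. The computations ran in Python 3.11.15 (scipy 1.17.1, pandas 2.3.3, numpy 2.4.6), with plots by matplotlib 3.10.9. A planned comparison of protein sequences was not run. Alternatives covered the fold, scaling, pseudocount, filter and the handling of rows.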

Additional observations from a re-analysis of the deposited data

Results flagged for a closer look

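The unnamed loci beyond the 3′ end of Insig2 lie outside the gene values compared in the report and carried signal above the WT library. The KO/WT ratio of their summed fragments per kb was 10.9, from an estimated 20.4 fragments in WT and 227 in KO. The loci were chosen after their values were seen and hold few reads outside KO, so a high ratio follows from the choice, and the value is a description with no test.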

How the results depend on the processing

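The counts of 3 lower and 1 higher among the 8 genes were the same at a fold of 2 in the values as deposited. They were also the same at 1.5-fold under the 3 other scalings. Taking the single most abundant row of a symbol, leaving out joint rows or keeping expressed genes alone could not change them. Each of the 8 genes has a single row that is not joint, and all 8 are expressed. Their median log2 KO/WT ran from -0.52 to -0.26 over its alternatives. Scaling mattered most for small differences. With libraries centred on the median of expressed genes, or with equal upper quartiles in brackets, the WT/KO ratios were 5.53 (5.67) for Insig1, 4.28 (4.39) for Srebf1, 1.88 (1.93) for Stard4, 1.21 (1.25) for Srebf2, 1.18 (1.22) for Scap and 0.267 (0.274) for Insig2, and Npc1 turned to 0.959 (0.984) and Mylip to 0.954 (0.979). The medians of several lists turned to above 0, with log2 KO/WT of 0.12 (0.080) for SREBP cleavage, 0.12 (0.085) for ER degradation, 0.13 (0.093) for sterol transport, 0.15 (0.11) for oxysterol-binding proteins, 0.12 (0.080) for lipoprotein receptors and 0.10 (0.064) for SREBP modifiers. That of LXR genes went from 0.05 to 0.29 (0.26), and that of Mylip partners was -0.13 after centring. Under both scalings the genes lower in KO numbered 0 for ER degradation, 1 for sterol transport with 2 higher, 1 for Mylip partners and 0 for SREBP modifiers, and after centring 1 for LXR genes. At a fold of 2 the higher genes numbered 0 for SREBP cleavage, 0 for sterol transport and 0 for lipoprotein receptors, and the lower genes 0 for ER degradation, 0 for SREBP modifiers and 1 each for sterol transport, Mylip partners and LXR genes. With genes down to a mean FPKM of 0.1 included, 1 oxysterol-binding gene and 2 lipoprotein receptor genes were lower. No paired analysis was possible because each genotype has 1 library, and for the same reason no library could be left out. Depth limits the comparison of low genes such as Mylip and Abcg1, and the deposited values do not separate transcripts.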
